A study of Mus musculus with 16 samples.

Results

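The acute phase proteins and the IL-6 signalling genes that control them were followed as a set of 38 genes in mouse liver RNA. A row of the deposited tables was taken as a member where its gene symbol equalled a name on the list, which gave 38 of 55487 rows, 1 row per member. All 38 members passed the low-count filter and were among the 13905 genes tested. The study compared livers of mice on a high-fat diet in 3 groups: 5 libraries named GFP, the controls, 5 named Cre, which the series text ties to the hepatocyte 7a isoforms of JNK1 and JNK2, a pair of stress-activated kinases, and 6 named Flpo, tied to the 7b isoforms. Cre and Flpo are recombinases that act on conditional alleles, and every library, controls included, carries the genotype written J1 J2 lf/lf on C57/Bl6J. Neither the way the recombinase or GFP was delivered nor the age of the mice is given in the sources used here. Titles number the libraries without saying that each is a separate mouse, so a p-value reflects the spread among libraries, which may be technical. The title numbers follow the groups in blocks, and a batch therefore cannot be told apart from a group.

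Library totals ran from 27929393 to 36043322 estimated counts, with 17067 to 18257 genes detected. The values are 1 per gene, so they do not show which JNK isoform a library holds. Hepatocyte markers summed to 74450 to 106200 TPM (abundance per unit of gene length, scaled to the library) over the 16 libraries, and none of the 10 markers was absent. Alb, Trf and Ttr are members as well as markers, and Alb alone held 32370 to 54710 TPM. The sum is therefore not independent of the members. In bulk tissue, fewer cells of a type and less RNA per cell cannot be told apart.

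The acute phase response is the change in plasma proteins that the liver makes during inflammation or injury. IL-6 binds its receptor and the shared subunit gp130 on hepatocytes, and JAK kinases then phosphorylate STAT3, which turns on many acute phase genes and also Socs3, an inhibitor of the same pathway. IL-1 acts beside it through NF-kB, C/EBP factors take part in many of these promoters, and hepcidin, the hormone that limits iron export, is driven by both STAT3 and BMP-SMAD signals. Negative acute phase proteins such as albumin and transthyretin are made in smaller amounts during the response.

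In Cre against GFP, 12 of 38 members passed the test (edgeR quasi-likelihood, Benjamini-Hochberg adjusted p under 0.05 over all genes tested), beside 9.55% of all genes tested. Of these, 4 were higher in Cre (3.97% of all genes) and 8 were lower (5.58%). The members that fell were Lcn2, Orm2, Orm3, Saa2, Saa4, Hamp2, Steap4 and Ttr, and those that rose were Serpina3k, Itih1, Itih2 and Socs3. The median log2 fold change was -0.18 over the 38 members and 0.00 over all genes. In Flpo against GFP, 0 of 38 members passed, beside 0.0288% of all genes. In Flpo against Cre, 14 of 38 passed, beside 13.7% of all genes, with 9 higher in Flpo (7.45% of all genes) and 5 lower (6.26%), and the member median was 0.03. Each group enters 2 of these comparisons, so they are not independent of each other.

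**Figure D1:**
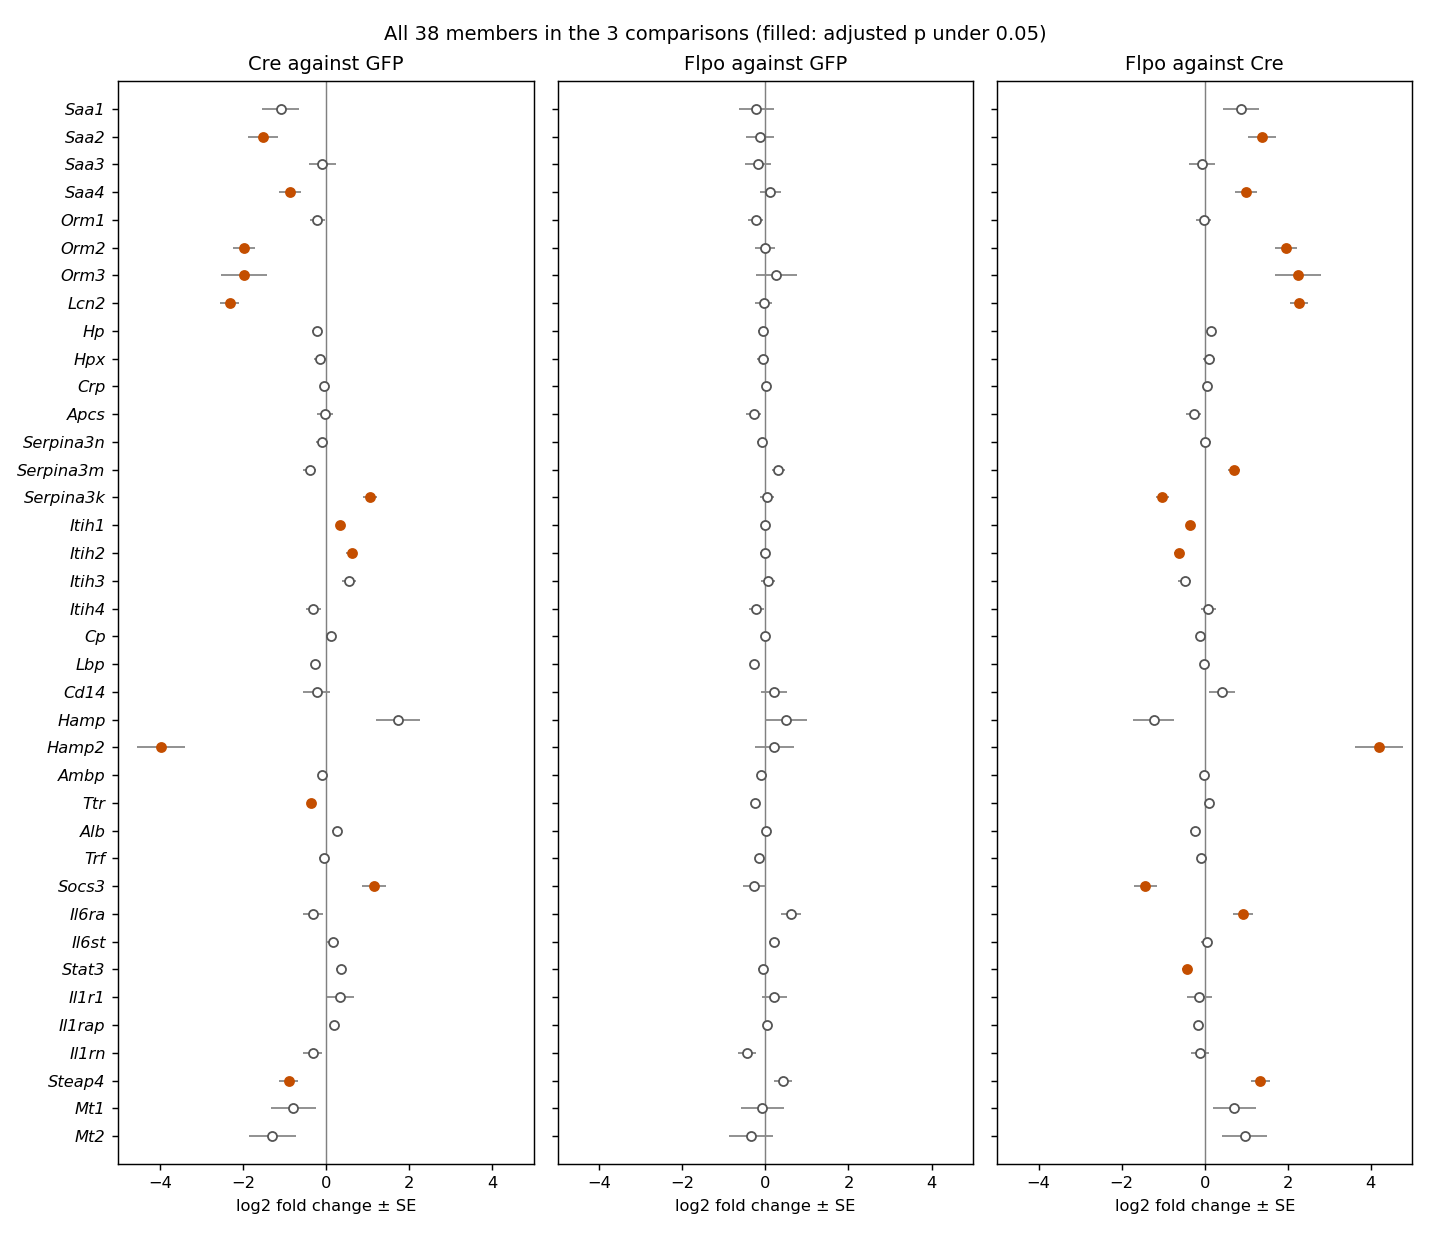
Log2 fold change ± SE of each of the 38 members (rows) in Cre against GFP, Flpo against GFP and Flpo against Cre, from 1 edgeR fit of 16 libraries. Filled points passed at an adjusted p under 0.05: 12 in the left panel, 0 in the middle and 14 on the right, with Hamp2 farthest from 0 in the outer panels (-3.98 and 4.19).

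Promoters of 7 members are shown because the results turn on these genes: the hepcidin pair, of which Hamp2 passed and Hamp did not, 3 genes that fell together in Cre (Lcn2, Orm2, Saa2), and the STAT3 target Socs3 beside Steap4, which went the other way. Each line gives the 250 bases before the RefSeq transcription start (GRCm38.p6), read 5′ to 3′ on the gene's strand. Capitals mark matches on either strand to the STAT motif TTCNNNGAA, the type II acute phase element CTGGGAA or the C/EBP motif TTGCNNAA; the NF-kB motif was searched too and is not in these windows. None of the marked matches overlap.
Hamp (chr7:30944030-30944279, minus strand): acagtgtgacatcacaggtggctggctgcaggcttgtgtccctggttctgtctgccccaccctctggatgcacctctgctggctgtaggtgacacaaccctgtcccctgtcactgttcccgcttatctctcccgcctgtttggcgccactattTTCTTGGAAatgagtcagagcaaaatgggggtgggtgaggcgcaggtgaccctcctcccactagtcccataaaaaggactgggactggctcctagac
Hamp2 (chr7:30924182-30924431, minus strand): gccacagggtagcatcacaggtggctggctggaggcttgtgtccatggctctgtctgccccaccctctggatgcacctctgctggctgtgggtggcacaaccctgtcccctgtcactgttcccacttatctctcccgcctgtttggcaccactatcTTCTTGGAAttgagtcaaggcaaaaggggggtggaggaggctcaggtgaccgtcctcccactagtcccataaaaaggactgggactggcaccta
Lcn2 (chr2:32387740-32387989, minus strand): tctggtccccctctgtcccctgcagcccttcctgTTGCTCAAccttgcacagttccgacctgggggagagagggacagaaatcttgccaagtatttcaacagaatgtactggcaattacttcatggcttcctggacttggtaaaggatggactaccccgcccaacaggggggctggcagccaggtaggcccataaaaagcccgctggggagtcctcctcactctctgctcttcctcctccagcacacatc
Orm2 (chr4:63362199-63362448, plus strand): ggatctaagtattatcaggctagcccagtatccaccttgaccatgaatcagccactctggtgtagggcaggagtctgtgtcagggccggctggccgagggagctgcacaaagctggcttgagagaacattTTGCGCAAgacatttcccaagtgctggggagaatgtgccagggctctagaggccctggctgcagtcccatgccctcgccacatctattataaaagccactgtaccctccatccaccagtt
Saa2 (chr7:46751583-46751832, plus strand): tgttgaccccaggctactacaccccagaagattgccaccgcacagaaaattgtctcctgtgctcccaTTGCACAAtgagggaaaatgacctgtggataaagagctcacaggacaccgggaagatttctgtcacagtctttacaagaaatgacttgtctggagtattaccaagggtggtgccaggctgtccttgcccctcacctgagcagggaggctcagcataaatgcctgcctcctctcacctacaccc
Socs3 (chr11:117969367-117969616, minus strand): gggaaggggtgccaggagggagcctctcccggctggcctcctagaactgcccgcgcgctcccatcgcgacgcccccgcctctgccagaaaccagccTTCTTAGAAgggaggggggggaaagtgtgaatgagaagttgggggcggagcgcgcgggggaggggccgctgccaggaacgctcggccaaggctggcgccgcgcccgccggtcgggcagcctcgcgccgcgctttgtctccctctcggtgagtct
Steap4 (chr5:7960222-7960471, plus strand): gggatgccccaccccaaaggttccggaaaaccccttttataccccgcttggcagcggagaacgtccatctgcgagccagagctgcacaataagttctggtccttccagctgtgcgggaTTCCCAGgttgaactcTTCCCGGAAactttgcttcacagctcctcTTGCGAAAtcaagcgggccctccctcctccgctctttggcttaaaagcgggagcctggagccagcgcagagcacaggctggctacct

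Hamp and Hamp2 were identical at 227 of 247 aligned bases (91.9%), and the capitals, a STAT match, are the same letters in both, from -97 to -89 in Hamp and from -94 to -86 in Hamp2. Socs3 has a STAT match from -154 to -146. Steap4 has a STAT match, a type II element and a C/EBP match within 132 bases of its start, and Lcn2, Orm2 and Saa2 each have 1 C/EBP match. Promoters were found for 30 of 38 members, 34 promoters in all, since some members have more than 1. Among these members, the STAT motif was present in 6 (Apcs, Hamp, Hamp2, Itih4, Socs3 and Steap4), with 6 of 34 promoters, while 7.02% of all 32851 RefSeq promoters held it. The C/EBP motif was present in 14 members, with 14 of their 34 promoters, and in 9.56% of all promoters. Its holders were Alb, Cp, Hpx, Il1r1, Itih2, Lcn2, Mt2, Orm2, Orm3, Saa1, Saa2, Saa3, Saa4 and Steap4. Some of these promoters are near copies, with 95.58% identity between Saa1 and Saa2 and 88.98% between Orm2 and Orm3. The type II element was present in 3 of 30 members (Apcs, Il1rn and Steap4), with 5 of 34 promoters, and in 9.10% of all promoters. Il1rn has more than 1 of these promoters, and some of its windows overlap and hold the same match. The NF-kB motif was present in 0 of 30 members and 1.21% of all promoters. A match describes the letters in this window and shows no binding. Orm1, Hp, Serpina3m, Serpina3k, Lbp, Cd14, Ttr and Trf were not matched.

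The ligand of the pathway was barely seen in the liver RNA. Il6 had 1 count in each of 2 libraries out of 16 and was too low to test, and Tnf reached at most 7 counts. Il1b, the macrophage cytokine that acts through NF-kB, averaged 0.559 CPM (counts scaled by library total and TMM factor) in GFP, 1.14 in Cre and 0.538 in Flpo. Its adjusted p was 0.183 in Cre against GFP (edgeR).

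Il6ra encodes the IL-6-binding receptor chain. Its abundance was 54.6, 33.8, 78.7, 44.25 and 88.1 CPM in GFP 1 to 5, and 53.0, 33.9, 37.0, 63.4 and 53.4 in Cre 1 to 5. The 6 Flpo libraries ran from 67.5 through a median of 87.7 to 119 CPM. Every Flpo library lay above every Cre library, while GFP spread across both. Il6ra rose by 0.92 on the log2 scale in Flpo against Cre (SE 0.24, edgeR adjusted p = 0.0167). Against GFP the values were 0.61 in Flpo (SE 0.24, adjusted p = 0.424) and -0.32 in Cre (SE 0.25, adjusted p = 0.475).

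Il6st encodes gp130, the signal-transducing subunit shared by the IL-6 family. It stood at 102, 95.6, 67.7, 97.1 and 90.7 CPM in GFP, and at 109, 90.6, 88.1, 108 and 114 in Cre. Flpo ran from 83.9 through a median of 99.97 to 137 CPM. The 3 groups overlapped, and no comparison passed (log2 fold changes of 0.17, 0.22 and 0.05, smallest edgeR adjusted p 0.483).

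Stat3 encodes the transcription factor that gp130 activates. GFP 1 to 5 held 105, 94.0, 88.2, 90.3 and 87.4 CPM and Cre 1 to 5 held 138, 127, 105, 98.9 and 133. In Flpo the lowest library had 73.7, the median was 85.5 and the highest, Flpo 1, had 121 CPM. Most Cre libraries were above GFP, but Cre 3 and Cre 4 reached into its range. Stat3 fell by 0.43 on the log2 scale in Flpo against Cre (SE 0.12, edgeR adjusted p = 0.0208), a call lost without Cre 1 (-0.38, adjusted p = 0.0534) and with library totals alone as scaling (-0.29, adjusted p = 0.107). In Cre against GFP its log2 fold change was 0.37 (SE 0.12, adjusted p = 0.0654), and it passed without Cre 4 (adjusted p = 0.031) or without Flpo 1 (0.0209).

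Socs3 encodes the feedback inhibitor that STAT3 induces. The GFP libraries had 5.13, 5.22, 6.19, 4.30 and 2.79 CPM. The Cre libraries had 19.6, 8.15, 7.65, 9.11 and 8.28 CPM, and the Flpo libraries 2.10 to 5.94 with a median of 3.93. All 5 Cre libraries lay above all others, and Cre 1 stood far above the remaining Cre libraries. Socs3 rose 2.23-fold in Cre against GFP (log2 1.16, SE 0.29, edgeR adjusted p = 0.0176). It fell by 1.43 on the log2 scale in Flpo against Cre (SE 0.28, adjusted p = 0.00221). Lcn2, Orm2, Orm3, Saa2 and Saa4 went the other way, lower in Cre against GFP and higher in Flpo against Cre. A link between them and Socs3 was not tested.

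The IL-1 receptor members did not pass in any comparison. Il1r1, the signalling receptor, ran from 16.7 to 53.2 CPM over all 16 libraries. Il1rap, its accessory protein, ran from 100.8 to 162 CPM, and Il1rn, the receptor antagonist, from 2.85 to 8.40. Their log2 fold changes in Cre against GFP were 0.35 for Il1r1, 0.19 for Il1rap and -0.32 for Il1rn. Among the 7 receptor and signalling members, 1 passed in Cre against GFP (9.55% of all genes) and 3 between Flpo and Cre (13.7% of all genes).

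The serum amyloid A genes encode apolipoproteins of high-density lipoprotein. Saa1 and Saa2 are the main acute phase forms of the liver, Saa3 is also made by macrophages and fat, and Saa4 is the constitutive form. Saa2 stood at 36.4, 59.1, 41.9, 86.0 and 73.0 CPM in GFP and at 29.9, 29.95, 24.6, 9.56 and 9.85 in Cre. Flpo ran from 36.4 through 48.9 to 85.4 CPM. Each Cre library lay under every GFP and every Flpo library. Saa2 fell 2.86-fold in Cre against GFP (log2 -1.51, SE 0.36, edgeR adjusted p = 0.0151), and it rose in Flpo against Cre (log2 1.38, SE 0.35, adjusted p = 0.015).

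For Saa1, GFP libraries had 70.3, 105, 87.95, 217 and 147 CPM, Cre libraries 107, 89.4, 57.5, 21.2 and 19.1, and Flpo libraries 74.2 to 154 with a median of 108. Cre 4 and Cre 5 were the lowest of the 16, but Cre 1 and Cre 2 lay among the GFP values. Its log2 fold change in Cre against GFP was -1.09 (SE 0.45), which did not pass (edgeR adjusted p = 0.149), and in Flpo against Cre it was 0.87 (SE 0.43, adjusted p = 0.212). With limma on the deposited TPM, Saa1 passed in Cre against GFP (-1.48 on log2(TPM + 1) and -1.49 on log2(TPM + 0.1), adjusted p 0.0252 and 0.0237) and in Flpo against Cre (1.36 and 1.37, adjusted p 0.0255 and 0.024). On TPM the median of all genes stood at -0.12 and -0.18 in Cre against GFP and 0.14 and 0.20 in Flpo against Cre. Saa1 and Saa2 transcripts share 22.8% of Saa1's 31-base words, so counts could be split between them. Summed, the pair ran from 107 to 303 CPM in GFP, 28.9 to 137 in Cre and 111 to 239 in Flpo.

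Saa4 stood at 243, 204, 402, 277 and 398 CPM in GFP and at 117, 179.7, 195, 244 and 93.5 in Cre. Flpo ran from 215 through 338 to 442 CPM. Cre 4 lay within the GFP range and the other Cre libraries below it. Saa4 fell by 0.88 on the log2 scale in Cre against GFP (SE 0.26, edgeR adjusted p = 0.0461) and rose by 0.99 in Flpo against Cre (SE 0.26, adjusted p = 0.0163). The first of these calls was lost on leaving out any of GFP 1, 3, 4 or 5, Cre 1, 2, 3 or 5, or Flpo 1, 3, 5 or 6 (adjusted p from 0.0526 to 0.112). Saa3 was low, 3.43 to 15.6 CPM over all libraries, with log2 fold changes between -0.17 and -0.08 and no call.

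Lcn2 encodes lipocalin-2, which binds bacterial siderophores and is a strong target of IL-6 and IL-1 in hepatocytes. GFP 1 to 5 had 44.8, 50.6, 55.95, 61.0 and 56.8 CPM. The Cre libraries had 9.62, 13.4, 8.36, 9.87 and 12.6 CPM, and Flpo ran from 30.1 through 50.95 to 76.5. All 5 Cre libraries were far under the lowest GFP and Flpo libraries. Lcn2 fell 4.995-fold in Cre against GFP (log2 -2.32, SE 0.22, edgeR adjusted p = 1.67e-05). It rose 4.85-fold in Flpo against Cre (log2 2.28, SE 0.22, adjusted p = 7.99e-06), while Flpo and GFP differed by -0.04 (SE 0.20, adjusted p = 0.962).

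Orm1, Orm2 and Orm3 encode orosomucoid, or alpha-1-acid glycoprotein, a plasma carrier of drugs and lipids. Orm2 stood at 16.8, 17.2, 17.15, 33.8 and 25.0 CPM in GFP and at 4.22, 6.72, 6.71, 6.29 and 3.89 in Cre, and Flpo ran from 13.6 through 21.7 to 32.9. The Cre values lay entirely below the rest. Orm2 fell 3.94-fold in Cre against GFP (log2 -1.98, SE 0.27, edgeR adjusted p = 0.000239) and rose by 1.96 in Flpo against Cre (SE 0.26, adjusted p = 0.000144).

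Orm3 was the lowest of the family, with 2.12, 1.47, 3.17, 1.96 and 5.15 CPM in GFP and 0.215, 0.826, 1.12, 0.541 and 0.824 in Cre. Flpo ran from 0.550 through 2.96 to 7.83 CPM. Every Cre library was under every GFP library, but Flpo 2 lay among the Cre values. Orm3 fell by 1.98 on the log2 scale in Cre against GFP (SE 0.56, edgeR adjusted p = 0.0334), a call lost without GFP 3, GFP 5, Cre 1, Cre 2, Cre 4 or Cre 5 (adjusted p from 0.0575 to 0.0902). In Flpo against Cre it rose by 2.24 (SE 0.55, adjusted p = 0.0108). With limma-voom Orm3 passed in neither (adjusted p 0.108 and 0.0744).

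Orm1, the most abundant orosomucoid gene, gave no call. It stood at 289, 279, 348, 475 and 407 CPM in GFP, at 287, 362, 386, 250.8 and 273 in Cre, and at 202 to 385 with a median of 321 in Flpo. The groups overlapped throughout (log2 fold change in Cre against GFP -0.21, SE 0.19, edgeR adjusted p = 0.548). Orm2 counts were 4.93% to 7.11% of Orm1 counts in GFP, 1.43% to 2.51% in Cre and 5.36% to 8.996% in Flpo. The transcripts of Orm1 and Orm2 share 27.5% of their 31-base words, so part of these counts may be split between them. Together the 3 genes ran from 297 to 510.3 CPM in GFP, 258 to 394 in Cre and 218 to 425 in Flpo.

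**Figure D2:**
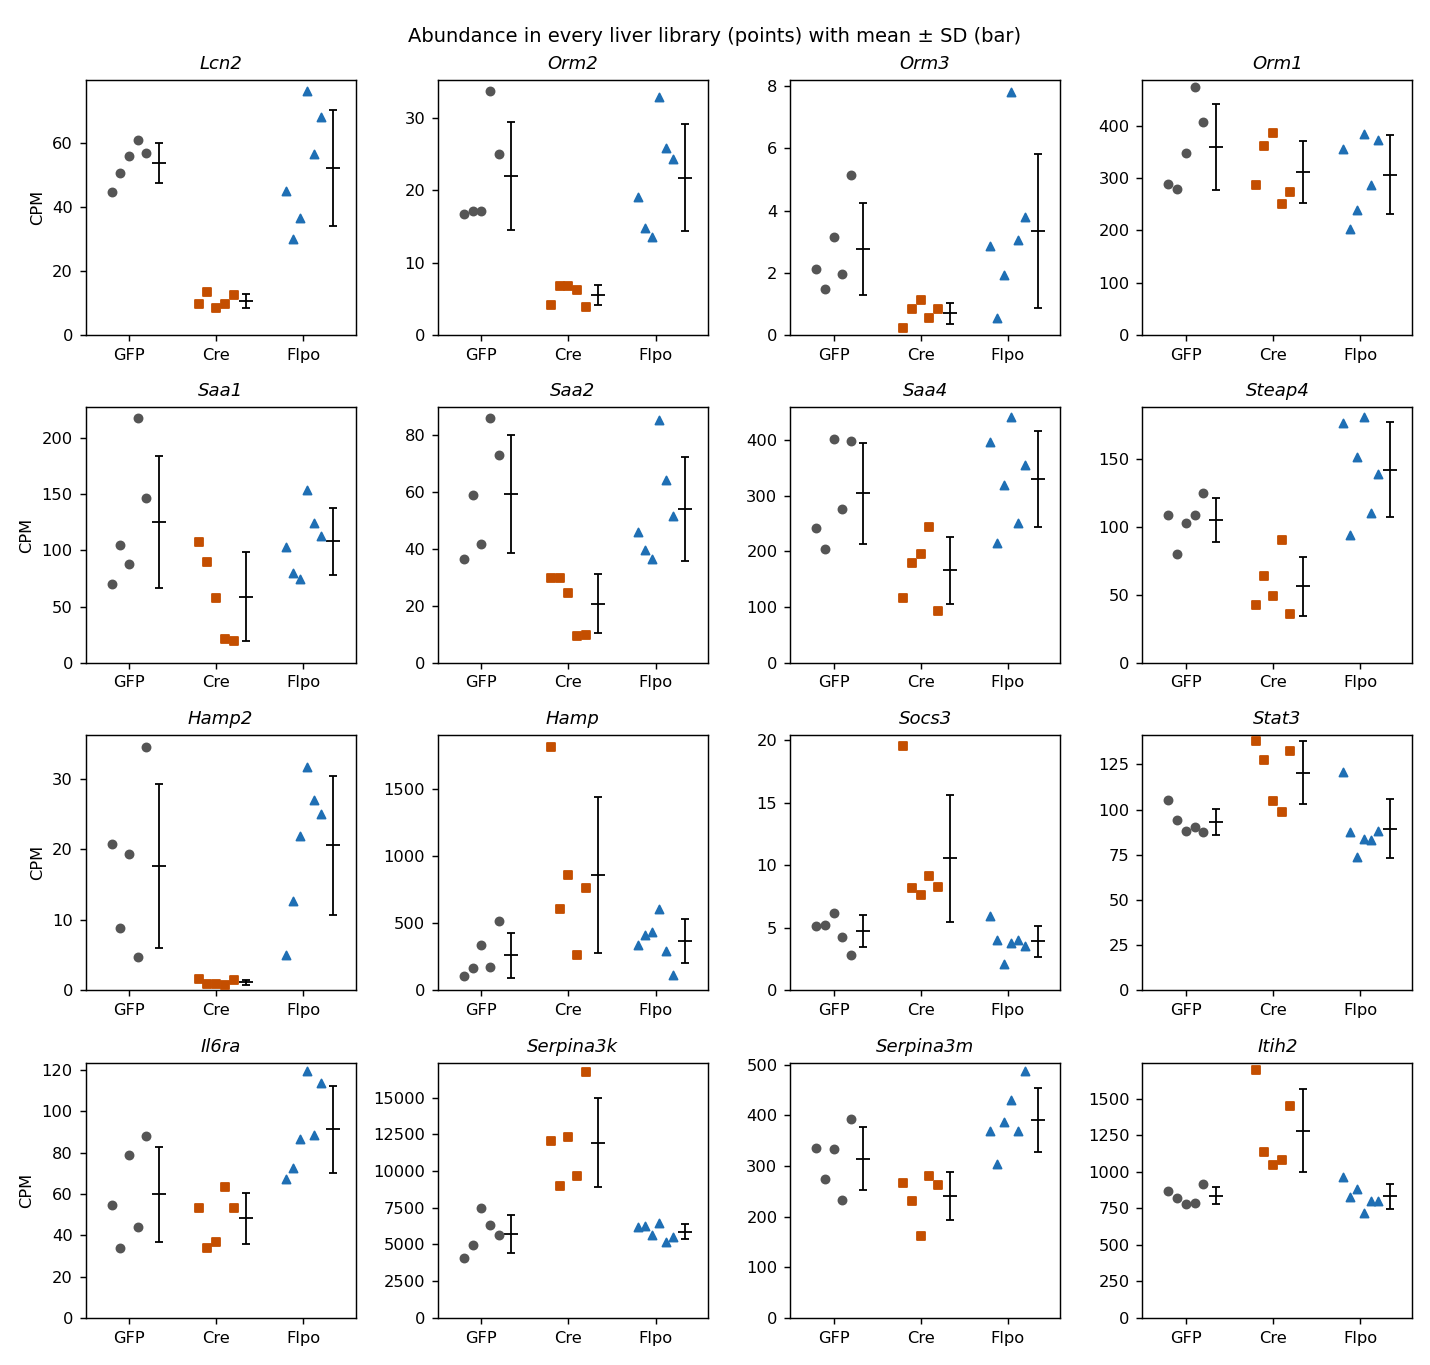
CPM of 16 members in each library (points: GFP n = 5, Cre n = 5, Flpo n = 6), with mean ± SD beside each group and every vertical axis starting at 0. Lcn2, Orm2, Saa2 and Hamp2 show all Cre points below all GFP and Flpo points, while Serpina3k, Itih2 and Socs3 show all Cre points above them, and Orm1 overlaps in the 3 groups.

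The pattern-recognition members did not pass in any comparison. Crp and Apcs encode pentraxins, the plasma proteins C-reactive protein and serum amyloid P, and Apcs is the stronger acute phase gene of the pair in mice. Crp ran from 185 to 255 CPM and Apcs from 54.1 to 139 over all libraries. Lbp, which hands endotoxin to Cd14, ran from 119.7 to 144 CPM in GFP, 99.6 to 133 in Cre and 94.0 to 124 in Flpo. Its log2 fold changes against GFP were -0.26 in Cre (SE 0.10, edgeR adjusted p = 0.115) and -0.28 in Flpo (SE 0.10, adjusted p = 0.371). Lbp passed in Cre against GFP without Cre 5 (-0.34, adjusted p = 0.0351), with library totals alone (-0.41, adjusted p = 0.019) and with TPM (-0.44 and -0.45, adjusted p 0.0235 and 0.0229). Totals alone put the median of all genes at -0.14 in that comparison, and TPM at -0.12 and -0.18. Cd14 was the lowest member per length, with a mean of 2.34 TPM.

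Of the 8 protease inhibitor members, 3 rose and 0 fell in Cre against GFP, beside 3.97% and 5.58% of all genes. Serpina3k encodes a secreted serpin of the alpha-1-antichymotrypsin cluster. It stood at 4099, 4999, 7507, 6338 and 5631 CPM in GFP and at 12020, 8982, 12290, 9670 and 16760 in Cre, and Flpo ran from 5173 through 5910 to 6481. All Cre libraries were above all others. Serpina3k rose 2.09-fold in Cre against GFP (log2 1.06, SE 0.17, edgeR adjusted p = 0.000691) and fell by 1.02 on the log2 scale in Flpo against Cre (SE 0.16, adjusted p = 0.000397).

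Serpina3m, a neighbour in the same cluster, stood at 336, 275, 335, 233 and 394 CPM in GFP and at 266, 231, 162, 280.3 and 262 in Cre. Flpo ran from 304 through 378 to 488 CPM. Cre libraries lay low and Flpo libraries high, with GFP across both. Serpina3m rose by 0.70 in Flpo against Cre (SE 0.15, edgeR adjusted p = 0.00539) and had a log2 fold change of -0.39 in Cre against GFP (SE 0.16, adjusted p = 0.137), where it passed with library totals alone (-0.52, adjusted p = 0.0402) and with TPM (-0.57 and -0.58, adjusted p 0.0456 and 0.0438). These settings lower the median of all genes too, to -0.14 with totals and to -0.12 and -0.18 with TPM. The annotated span of Serpina3k (chr12:104338486-104346144, GENCODE, GRCm38) lies inside that of Serpina3m (chr12:104338486-104394257), and 24.5% of Serpina3m's 31-base words are found in Serpina3k, so the split of counts between them is uncertain. Serpina3n, an inducible gene of the cluster, ran from 436 to 774 CPM over all libraries and did not pass (log2 fold changes of -0.10, -0.08 and 0.02).

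Several inter-alpha-trypsin inhibitor heavy chains stabilise hyaluronan in the matrix, and Itih4 is an acute phase gene of the family. Itih2 stood at 869, 819, 779, 790.2 and 919.6 CPM in GFP and at 1700, 1134, 1044, 1084 and 1454 in Cre. In Flpo it ran from 720.1 through 814 to 968 CPM. All Cre libraries were above all others. Itih2 rose 1.54-fold in Cre against GFP (log2 0.62, SE 0.13, edgeR adjusted p = 0.00474) and fell by 0.62 in Flpo against Cre (SE 0.12, adjusted p = 0.00204).

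Itih1 stood at 481, 476, 536, 462 and 513 CPM in GFP, at 731, 640, 615, 564 and 566 in Cre, and at 442 to 591 with a median of 473 in Flpo. The Cre libraries were above all GFP libraries, and Flpo 1 reached into the Cre range. Itih1 rose by 0.34 on the log2 scale in Cre against GFP (SE 0.10, edgeR adjusted p = 0.0339) and fell by 0.35 in Flpo against Cre (SE 0.09, adjusted p = 0.015). With library totals alone as scaling, which shifts the median of all genes by -0.14 in Cre against GFP, Itih1 stood at 0.19 (adjusted p = 0.185), and in Flpo against Cre at -0.22 (adjusted p = 0.103). The first call was also lost without GFP 1, 2, 4 or 5 or Cre 1, 2 or 3 (adjusted p from 0.0529 to 0.0773). Itih3 ran from 641 to 797 CPM in GFP and 799.8 to 1527 in Cre with no overlap, at a log2 fold change of 0.55 (SE 0.17, adjusted p = 0.0527), and it passed without Cre 3, Cre 4 or Flpo 1 (adjusted p 0.0404, 0.0299 and 0.0194). Its log2 fold change in Flpo against Cre was -0.48 (adjusted p = 0.0577), and it passed there without Cre 3, Cre 4 or Flpo 1 (-0.56, -0.56 and -0.64, adjusted p 0.0417, 0.0293 and 0.00595). With DESeq2 Itih3 passed in both (adjusted p 0.0211 and 0.0301). Itih4 ran from 1614 to 2431 CPM in GFP and 1062 to 2205 in Cre, with a log2 fold change of -0.31 that did not pass (adjusted p = 0.339). Ambp, whose product bikunin is the light chain of inter-alpha-trypsin inhibitor, ran from 1507 to 2120 CPM over all libraries without a call.

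Among the haem and iron members, the scavengers did not pass. Hp encodes haptoglobin, which binds free haemoglobin. It stood at 3622, 4188, 4748, 4851 and 4709 CPM in GFP, at 3763, 4647, 3412, 3507 and 3651 in Cre, and at 3543 to 5266 with a median of 4112 in Flpo. The groups overlapped (log2 fold change in Cre against GFP -0.22, SE 0.12, edgeR adjusted p = 0.271). Hpx, the haem carrier hemopexin, ran from 2414 to 4473 CPM and Cp, the copper ferroxidase ceruloplasmin, from 895 to 1210 over all libraries, without a call.

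Steap4 encodes a metalloreductase for iron and copper. It stood at 109, 80.1, 103, 109 and 125 CPM in GFP and at 42.2, 63.5, 49.2, 90.5 and 35.5 in Cre, and Flpo ran from 94.0 through 145 to 181. Cre 4 lay within the GFP range and the other Cre libraries below it, while all Flpo libraries were above all Cre libraries. Steap4 fell 1.87-fold in Cre against GFP (log2 -0.90, SE 0.23, edgeR adjusted p = 0.0194) and rose 2.53-fold in Flpo against Cre (log2 1.34, SE 0.22, adjusted p = 0.000889).

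Hamp and Hamp2 are the pair of mouse hepcidin genes, and Hamp encodes the active hormone. Hamp2 stood at 20.8, 8.90, 19.4, 4.73 and 34.6 CPM in GFP and at 1.57, 0.862, 0.895, 0.812 and 1.49 in Cre. Flpo ran from 4.99 through 23.5 to 31.7 CPM. All Cre libraries were far under the lowest library of the other groups. Hamp2 fell 15.7-fold in Cre against GFP (log2 -3.98, SE 0.58, edgeR adjusted p = 0.00069), the greatest fold among the 38 members, and rose 18.3-fold in Flpo against Cre (log2 4.19, SE 0.58, adjusted p = 0.000273).

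Hamp did not fall with it. GFP libraries had 109, 164, 339, 171 and 514 CPM, Cre libraries 1815, 603, 857, 262 and 763, and Flpo libraries 117 to 605 with a median of 372. Cre 1 was the highest of the 16, and Cre 4 alone lay inside the GFP range. The log2 fold change in Cre against GFP was 1.73 (SE 0.54), which did not pass (edgeR adjusted p = 0.0578). It passed without GFP 5 (2.14, adjusted p = 0.0349), without Cre 4 (1.96, adjusted p = 0.0262) and without Flpo 6 (1.75, adjusted p = 0.0417). Of 11 alternative settings it passed in 5, and the adjusted p ran up to 0.625. The 5 were DESeq2 (1.74, adjusted p = 0.0152), limma-voom (1.70, adjusted p = 0.0393), a CPM filter (1.74, adjusted p = 0.0485) and limma on TPM (1.51 and 1.51, adjusted p 0.043 and 0.0409). Hamp2 counts were 2.77% to 19.1% of Hamp counts in GFP, 0.0867% to 0.310% in Cre and 1.495% to 21.5% in Flpo. The transcripts share 33.7% of Hamp's 31-base words and a longest run of 87 bases, so reads could be split. Such a split moves counts within the pair, and the summed pair ran from 129.6 to 548 CPM in GFP, 263 to 1817 in Cre and 142 to 637 in Flpo. Most of that sum is Hamp, so it cannot show how far a split shaped the Hamp2 counts.

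Other genes of hepcidin control were read from a list of 27 that leaves the members out, of which 24 were tested. In Cre against GFP 3 rose and 2 fell (9.55% of all genes passed), and in Flpo against Cre 2 rose and 2 fell (13.7%), so the second share lies near that of all genes. Id1, a direct BMP-SMAD target, rose in Cre against GFP (log2 1.63, edgeR adjusted p = 0.00564), with 3.62 to 7.38 CPM in GFP and 10.2 to 35.5 in Cre. Atoh8, another BMP target, rose by 1.01 (adjusted p = 0.00118), and Smad7, the inhibitory SMAD, by 0.95 (adjusted p = 0.0255). Hjv, the BMP co-receptor hemojuvelin, fell by 0.24 on the log2 scale (adjusted p = 0.0417), and Fth1, the ferritin heavy chain, fell by 0.33 (adjusted p = 0.033). Between Flpo and Cre, Id1 fell by 1.48 (adjusted p = 0.00469) and Atoh8 by 1.13 (adjusted p = 0.000175), while Fth1 rose by 0.34 (adjusted p = 0.0161) and Tfrc, the transferrin receptor, by 0.85 (adjusted p = 0.00803).

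The calls for Smad7, Hjv and Fth1 depended on single libraries. Hjv kept its call in Cre against GFP on leaving out Cre 2 or Cre 5 and lost it without any other library (edgeR adjusted p up to 0.112). Fth1 lost its call without GFP 1, 2, 4 or 5, Cre 2 or 3, or Flpo 2 or 6 (adjusted p 0.0503 to 0.0947), and Smad7 without GFP 1, 2 or 5 or Cre 1 (adjusted p 0.0506 to 0.0655). Hjv and Fth1 did not pass without the low-count filter (adjusted p 0.141 and 0.0608) or with only the 2 groups compared (0.124 and 0.0828), and Smad7 did not with TPM (adjusted p 0.091 and 0.0858). In Flpo against Cre, Fth1 was lost without Cre 3 (adjusted p 0.0541) or Flpo 5 (0.053).

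**Figure D3:**
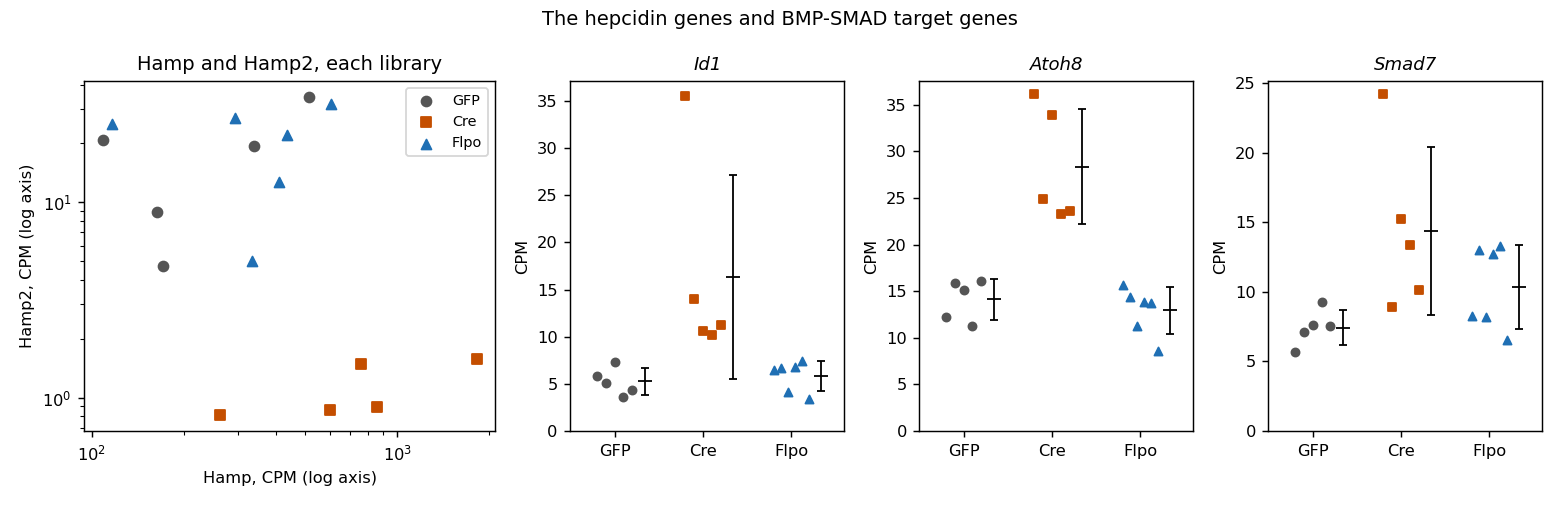
Left, Hamp2 against Hamp in each of the 16 libraries (CPM, both axes logarithmic); right, CPM of Id1, Atoh8 and Smad7 per library with mean ± SD. The 5 Cre libraries lie at Hamp2 values of 0.812 to 1.57 CPM with Hamp between 262 and 1815, and Cre 1 is the highest of all for the 3 BMP targets.

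The metallothioneins Mt1 and Mt2 bind zinc and are induced by IL-6, zinc and glucocorticoids. Both spread widely within groups, with Mt1 at 97.3 to 198 CPM in GFP, 24.1 to 155 in Cre and 71.7 to 283 in Flpo. Mt2 ran from 38.2 to 73.8, 7.25 to 55.3 and 15.9 to 108 CPM in the same order. Neither passed in a comparison (edgeR log2 fold change in Cre against GFP -0.79 for Mt1, adjusted p = 0.416, and -1.30 for Mt2, adjusted p = 0.173). Without Cre 1, where both stood within their GFP range, Mt2 passed in Cre against GFP (adjusted p = 0.0288), and Flpo against Cre gave 1.66 (adjusted p = 0.0458). Mt2 also passed in Cre against GFP with limma-voom (-1.67, adjusted p = 0.0406) and with TPM (-1.82 and -1.83, adjusted p 0.0198 and 0.0184), where the median of all genes stood at -0.12 and -0.18. Of 10 other zinc handling genes, 0 passed in Cre against GFP (9.55% of all genes) and 1 in Flpo against Cre (13.7%): the manganese and zinc exporter gene Slc30a10 fell by 1.04 in Flpo against Cre (adjusted p = 0.00504).

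Negative acute phase members were mixed. Ttr, the thyroxine and retinol carrier transthyretin, stood at 5951, 5863, 6917, 5598 and 6126 CPM in GFP and at 3972, 5149, 4824, 4983 and 4931 in Cre, and Flpo ran from 4461 through 5069 to 5835. All Cre libraries were under all GFP libraries, with Flpo across both. Ttr fell by 0.35 on the log2 scale in Cre against GFP (SE 0.10, edgeR adjusted p = 0.0298), a call lost without GFP 1, 2, 3 or 5, Cre 1 or Cre 3 (adjusted p from 0.0536 to 0.0772). In Flpo against GFP its log2 fold change was -0.24 (SE 0.09, adjusted p = 0.422).

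Alb, the main plasma protein, was the most abundant member. It stood at 62350, 59290, 71170, 54140 and 65400 CPM in GFP, at 79590, 80500, 61520, 80960 and 71430 in Cre, and at 57490 to 71800 with a median of 60380 in Flpo. Cre values lay higher on the whole, but Cre 3 was within the GFP range. The log2 fold change in Cre against GFP was 0.26 (SE 0.11, edgeR adjusted p = 0.142). Trf, the iron carrier transferrin, ran from 10590 to 15370 CPM over all libraries without a call.

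Per length, the members spanned a wide range of levels. Alb averaged 42840 TPM over the 16 libraries, followed by Trf at 9950, Ttr at 6792, Serpina3k at 4792, Hamp at 4627 and Hp at 4375. The receptors and regulators were at the other end, with Stat3 at 26.8, Il6st at 14.9, Il6ra at 14.3 and Socs3 at 3.34 TPM. Orm1 averaged 779.7 TPM against 41.6 for Orm2 and 5.80 for Orm3. The 38 members made up 7.78% to 8.86% of all TPM in GFP, 6.94% to 9.94% in Cre and 7.52% to 9.08% in Flpo, so their summed share overlapped in the 3 groups.

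**Figure D4:**
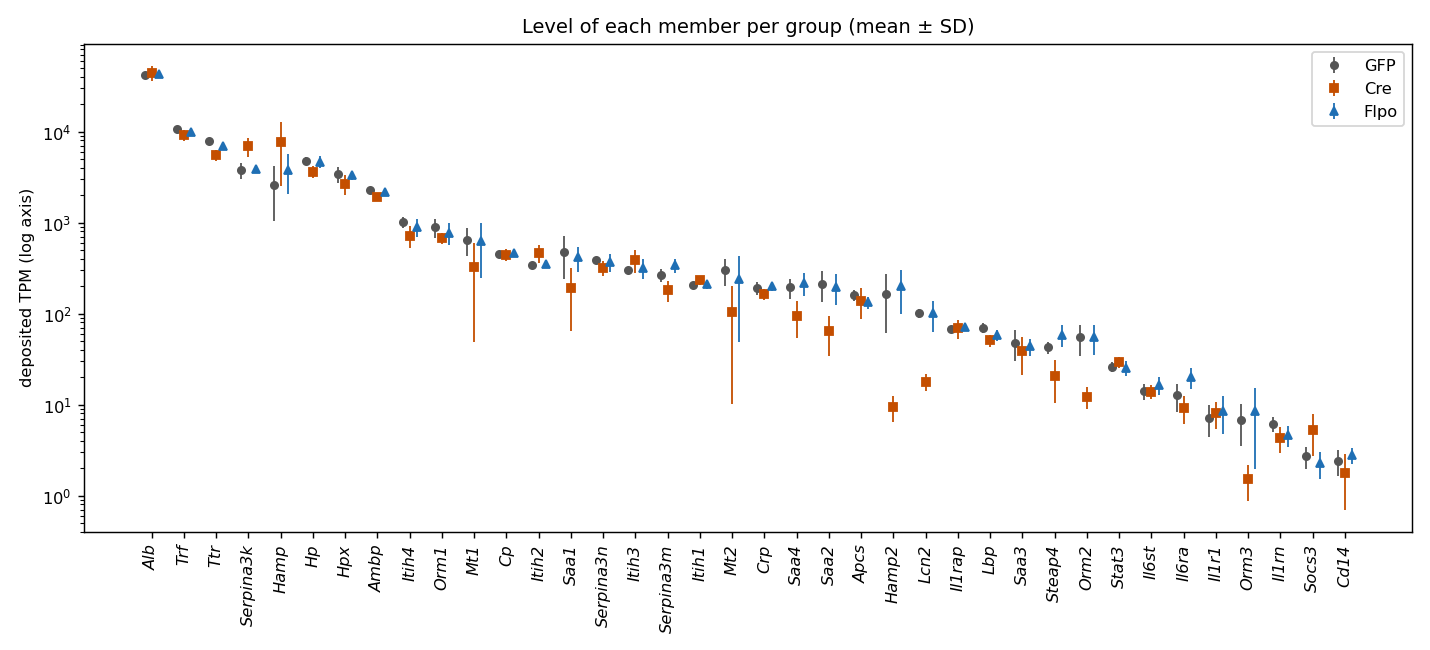
Deposited TPM of each member per group (mean ± SD, logarithmic axis), ordered by the mean over 16 libraries. Levels run from 42840 TPM for Alb to 2.34 for Cd14, and the Cre squares drop below the other groups for Hamp2, Lcn2 and Orm2.

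Some members had groups that did not overlap at all. In Cre against GFP there were 11 such members, beside 8.2% of all genes tested, with Cre higher in 5 (3.56% of all genes) and lower in 6 (4.64%). Of the 12 members that passed there, Saa4 and Steap4 were the exceptions with overlapping groups, and Itih3 did not overlap without passing. Flpo against Cre had 10, beside 7.84% of all genes, with Flpo higher in 7 (4.52%) and lower in 3 (3.32%). Flpo against GFP had 0, beside 1.55% of all genes (0.676% higher and 0.87% lower). In that comparison Lbp, Ttr and Il6ra had an unadjusted p under 0.05 (0.00913, 0.0178 and 0.0204 in edgeR), beside 9.73% of all genes, and 0 members passed with DESeq2 or limma-voom either.

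The wider IL-6 pathway was read from a list of 33 cytokines, receptors and JAK-STAT genes that leaves the members out, of which 29 were tested. In Cre against GFP 2 rose and 0 fell (median log2 fold change 0.05), and in Flpo against Cre 1 rose and 4 fell (median 0.02). These shares stand beside 9.55% and 13.7% of all genes, and both lie near them. Lifr, the receptor chain for leukaemia inhibitory factor, rose by 0.91 in Cre against GFP (edgeR adjusted p = 0.00417) and fell by 1.09 in Flpo against Cre (adjusted p = 0.000463). Socs2, an inhibitor best known as a growth hormone target through STAT5, rose by 2.22 in Cre against GFP (adjusted p = 0.00564) and fell by 1.64 in Flpo against Cre (adjusted p = 0.0145). Pim1, a STAT-induced kinase, fell by 1.19 in Flpo against Cre (adjusted p = 0.0127), Bcl3, an IkB-like STAT3 target, fell by 0.46 (adjusted p = 0.0452), and Gab1, an adaptor of gp130 signalling, rose by 0.50 (adjusted p = 0.0213). The C/EBP genes did not pass: Cebpb had a log2 fold change of -0.12 and Cebpd of 0.16 in Cre against GFP (adjusted p 0.795 and 0.835). The Bcl3 call was lost in 8 of 11 alternative settings (adjusted p up to 0.743) and without GFP 3 or 5, Cre 2, 3 or 5, or Flpo 3, 4, 5 or 6 (adjusted p 0.0506 to 0.144). The Gab1 call was lost without Cre 2, Cre 3, Flpo 3 or Flpo 5 (adjusted p 0.0514 to 0.0609).

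Of 35 tested genes of IL-1, TNF and NF-kB signalling, 1 rose and 1 fell in Cre against GFP, and 2 rose and 5 fell in Flpo against Cre, beside 9.55% and 13.7% of all genes passing. The riser was Irak2, a kinase of the IL-1 receptor complex (log2 0.52, edgeR adjusted p = 0.0237), and the faller the cytokine gene Il18 (-0.68, adjusted p = 0.0126). Between Flpo and Cre, Irak2 fell by 0.69 (adjusted p = 0.00191), Tab2 by 0.61 (adjusted p = 0.00475) and the NF-kB subunit Rela by 0.39 (adjusted p = 0.0233), while Il18 rose by 0.66 (adjusted p = 0.00893). Irak2 lost its call in Cre against GFP without GFP 5 (adjusted p 0.0613) or Cre 2 (0.0655), with library totals alone (0.0856) and with TPM (0.143 and 0.141). Rela lost its call without Cre 5 (adjusted p 0.0664), with library totals alone (0.095) and with TPM (0.24 and 0.237), and Tab2 with TPM (0.0707 and 0.0683).

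Of 37 other acute phase proteins, 3 rose and 2 fell in Cre against GFP, and 3 rose and 7 fell in Flpo against Cre, beside 9.55% and 13.7% of all genes passing. Mug1, a murinoglobulin protease inhibitor, rose by 0.71 in Cre against GFP (edgeR adjusted p = 0.000677), as did Apoa1, the main protein of high-density lipoprotein (0.50, adjusted p = 0.0326), and Itih5 (0.80, adjusted p = 0.018). Pltp, the phospholipid transfer protein, fell by 1.28 (adjusted p = 0.0411). Fgg, the fibrinogen gamma chain and a positive acute phase gene, fell by 0.60 in Flpo against Cre (adjusted p = 0.0157), and Serpina7, the thyroxine-binding globulin, rose by 1.36 (adjusted p = 0.0104). The Pltp call was lost without GFP 1, 2 or 4, any of Cre 1 to 5, or Flpo 3 (adjusted p 0.054 to 0.104), without the low-count filter (0.103) and with limma-voom (0.0548). The Apoa1 call was lost without GFP 1, 4 or 5 or Cre 1, 2 or 5 (adjusted p 0.0614 to 0.0786), with library totals alone (0.0866), with only the 2 groups compared (0.0697) and with TPM (0.223 and 0.22). TPM also ended the calls for Itih5 (adjusted p 0.0589 and 0.0636) and Fgg (0.0824 and 0.0803).

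Glucocorticoids act beside IL-6 on acute phase genes. Of 14 tested genes of the glucocorticoid receptor and its liver targets, 1 rose and 1 fell in Cre against GFP, and 3 rose and 1 fell in Flpo against Cre, beside 9.55% and 13.7% of all genes passing. Pck1, the gluconeogenic enzyme, rose by 1.31 in Cre against GFP (edgeR adjusted p = 0.00381) and fell by 0.86 in Flpo against Cre (adjusted p = 0.0241). Dusp1, a MAP kinase phosphatase, fell by 0.88 in Cre against GFP (adjusted p = 0.0156) and rose by 0.87 in Flpo against Cre (adjusted p = 0.00952). Tsc22d3 rose by 1.44 and the clock gene Per1 by 1.23 in Flpo against Cre (adjusted p 0.00805 and 0.0362). Per1 lost its call without Cre 2, 3 or 4 or Flpo 3, 4, 5 or 6 (adjusted p 0.0552 to 0.0899) and without the low-count filter (0.0939). Pck1 lost its call in Flpo against Cre without Cre 1 (adjusted p 0.0628) or Cre 5 (0.051), without the low-count filter (0.0659) and with TPM (0.054 and 0.052).

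Markers of other cells were read beside these results. Lcn2 is also a neutrophil gene, and the 13 neutrophil markers summed to 4.35 to 8.64 TPM in GFP, 4.52 to 15.0 in Cre and 1.33 to 8.72 in Flpo, with 2 of 13 high enough to test and 0 passing. The 11 Kupffer cell markers summed to 147 to 248 TPM in GFP, 126 to 177 in Cre and 129 to 322 in Flpo, with 0 passing. The 10 stellate cell and fibroblast markers summed to 87.6 to 148 TPM in GFP, 50.9 to 98.2 in Cre and 110.1 to 161 in Flpo, and 5 of 10 fell in Cre against GFP (Col1a1, Col1a2, Col3a1, Lrat and Lum), while 6 of 10 rose in Flpo against Cre. Of the 6 adipocyte markers, 2 were tested and Cfd, also known as adipsin, fell in Cre against GFP (log2 -2.93, edgeR adjusted p = 0.000136), while Adipoq, Lep and Plin1 were under 1 count in every GFP library. The adipocyte sums were 19.4 to 38.8 TPM in GFP, 7.83 to 18.1 in Cre and 24.8 to 61.0 in Flpo. Monocyte and recruited macrophage markers summed to 84.95 to 120.8 TPM in GFP, 66.2 to 102 in Cre and 96.3 to 146 in Flpo, and of these Cx3cr1 fell in Cre against GFP. Lymphocyte and plasma cell markers summed to 7.29 to 11.6, 8.65 to 27.4 and 6.43 to 20.6 TPM in that order, and Cd4 rose. Endothelial sums were 45.5 to 68.0, 53.3 to 70.3 and 34.6 to 72.6 TPM, and Kdr rose. Cholangiocyte sums were 42.8 to 55.9, 30.2 to 54.7 and 39.1 to 89.4 TPM. Of 7 cholangiocyte markers tested in Cre against GFP, 4 had positive and 3 negative log2 fold changes, and only Sox9 passed, higher in Cre. Mesothelial sums were 1.91 to 6.12, 0.436 to 1.95 and 0.691 to 3.05 TPM, and Wt1 fell. The part of these cells in the members' results was not tested.

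Clock genes were read beside the members as well. Of 13 tested, 3 passed in Cre against GFP (Dbp, Per3 and Ciart, all lower) and 10 in Flpo against Cre, while Flpo against GFP gave 0. Of the 10, Dbp, Tef, Hlf, Per3, Nr1d2 and Ciart rose, and Arntl, Clock, Nfil3 and Nr1d1 fell. A score was taken per library as the mean z of 5 clock genes of the Arntl phase minus the mean z of 8 of the opposite phase, on log2 CPM. Nr1d1, scored with the opposite phase, went against the rest of its set, with a mean of 119.6 CPM in Cre and 50.9 in Flpo (log2 -1.23 in Flpo against Cre, edgeR adjusted p = 0.00896). The score ran from -0.786 to 0.679 in GFP, from -0.292 to 2.37 in Cre and from -1.73 to -0.459 in Flpo. Cre and Flpo did not overlap, and of the Cre libraries only Cre 4, at -0.292, lay within the GFP range. With the score as a covariate in the edgeR fit, 178 of all 13905 genes passed in Cre against GFP, in place of 1328. Among the members 4 passed: Lcn2 (-2.41, adjusted p = 0.00116), Orm2 (-1.67, adjusted p = 0.0363) and Hamp2 (-4.001, adjusted p = 0.0331) fell, and Serpina3k rose (1.02, adjusted p = 0.0491). Calls were lost for Saa2 (-1.81, adjusted p = 0.167), Socs3 (0.73, adjusted p = 0.389), Steap4 (-0.56, adjusted p = 0.381), Itih2 (0.43, adjusted p = 0.251), Saa4 (-0.48, adjusted p = 0.59), Itih1 (0.23, adjusted p = 0.482) and Ttr (-0.24, adjusted p = 0.458). Orm3 lost its call too, at a log2 fold change of -1.97 with an SE of 0.86 in place of 0.56 (adjusted p = 0.327).

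In Flpo against Cre, 23 of all genes passed with the score, in place of 1906. Among the members only Lcn2 still passed (2.41, edgeR adjusted p = 0.0233), and Stat3 changed sign (0.02, adjusted p = 0.988). Hamp2 stood at 4.23 with an SE of 1.08 in place of 0.58 (adjusted p = 0.221), and Orm3 at 2.23 with an SE of 1.05 in place of 0.55 (adjusted p = 0.599). Saa2 stood at 1.80 (SE 0.74 in place of 0.35, adjusted p = 0.536) and Orm2 at 1.504 (SE 0.46 in place of 0.26, adjusted p = 0.353). Serpina3m stood at 0.70 (SE 0.28 in place of 0.15, adjusted p = 0.502) and Serpina3k at -0.97 (SE 0.31 in place of 0.16, adjusted p = 0.357). The estimate itself shrank for Saa4 (0.39 in place of 0.99), Il6ra (0.53 in place of 0.92) and Steap4 (0.79 in place of 1.34). It also shrank for Socs3 (-0.75 in place of -1.43), Itih2 (-0.32 in place of -0.62) and Itih1 (-0.18 in place of -0.35). None of these passed (edgeR adjusted p 0.56 to 0.884). Since Cre and Flpo did not overlap in the score, a change with the score cannot be told apart from a change with the group here. That holds whether the estimate shrank or its SE widened. Of the pathway genes named above as rising or falling, Mug1 in Cre against GFP (0.68, adjusted p = 0.0327) kept its call with the score, and the others lost theirs in each comparison.

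Cre 4 allows a look at Cre values at a clock score within the GFP range. There Lcn2 stood at 9.87 CPM, Orm2 at 6.29, Saa2 at 9.56 and Hamp2 at 0.812, each under the lowest GFP library. Serpina3k at 9670 and Socs3 at 9.11 CPM were above the highest GFP library. Saa4 at 244, Steap4 at 90.5 and Stat3 at 98.9 CPM were within the GFP range. This is 1 library and carries no test.

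**Figure D5:**
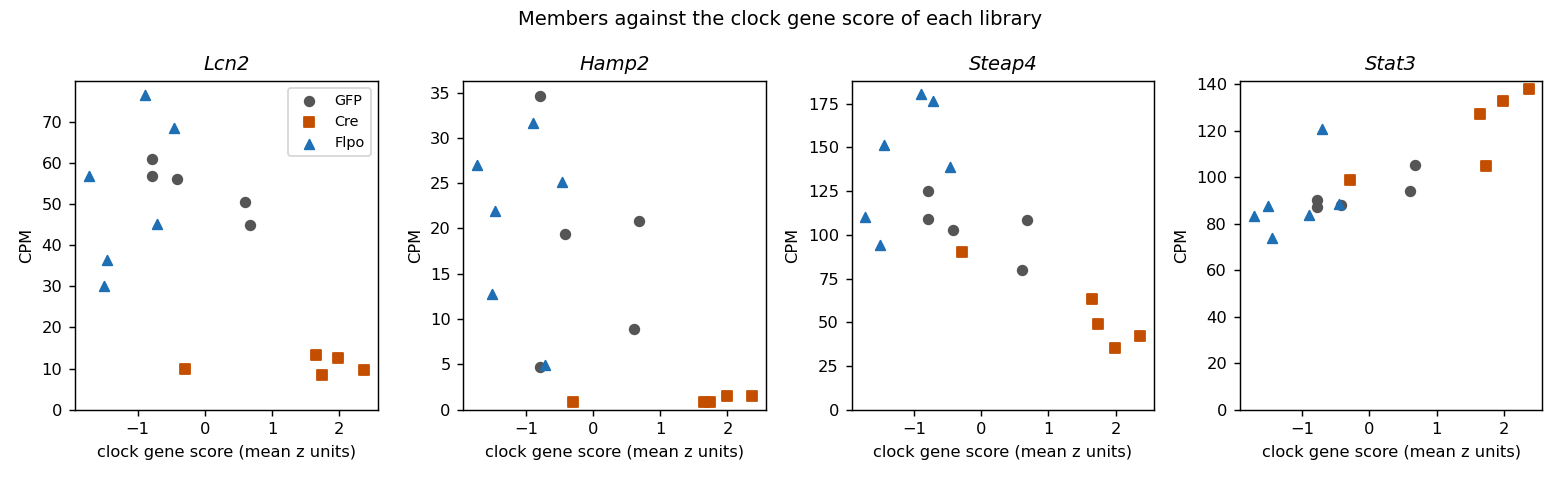
CPM of Lcn2, Hamp2, Steap4 and Stat3 against the clock gene score (mean z units) of each of the 16 libraries. Cre 4, the Cre square at a score of -0.292, sits with the other Cre libraries for Lcn2 and Hamp2 and within the GFP range for Steap4 (90.5 CPM) and Stat3 (98.9 CPM).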

How the data were processed

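Liver RNA of 16 libraries was read from 2 tables. The authors deposited estimated counts per gene and, for the same libraries, TPM per gene. Per the submitters' processing notes, cutadapt, STAR and mm10 were used. Which program and annotation made the gene values, and whether strand was used, is not given in the sources used here. Among deposited counts, 31.7% were not whole, and in 10835 genes with over 20 counts each equalled the deposited TPM times 1 factor per gene and 1 per library (largest deviation 1.07e-09, log2). Such values can split reads between near-identical or overlapping genes.

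Groups and replicate numbers come from the titles. Rounded counts entered edgeR 4.0.16, run in R 4.3.3 (filterByExpr with a minimum count of 10, TMM, robust quasi-likelihood), all 16 libraries in 1 fit with 3 contrasts, Benjamini-Hochberg over 13905 genes. Each SE is the log2 fold change divided by the root of its F value. A fold is the fitted fold change with its direction in words. TPM served to compare levels between genes. Shared 31-base words and gene spans come from GENCODE transcripts (GRCm38), promoters from RefSeq. The members, lists, tests and alternatives were chosen with earlier results of these data known. Values are given in every GFP and Cre library, and as the lowest, median and highest of the 6 Flpo libraries, for members that passed in any comparison and for Il6ra, Il6st, Stat3, Socs3, Saa1, Saa2, Orm1, Hp, Hamp and Alb. At most 6 genes of each pathway list with the smallest adjusted p are named, plus Il6, Il1b, Tnf, Cebpb and Cebpd. The fit was tested on simulated data. Alternatives were DESeq2-type size factors, library totals, no low-count filter, a CPM filter, DESeq2 1.42.0, limma-voom (limma 3.58.1), only the 2 groups compared, a replicate block without Flpo 6, limma on log2(TPM + 1) and log2(TPM + 0.1), the clock score as a covariate, and each library left out in turn.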

Additional observations from a re-analysis of the deposited data

Results flagged for a closer look

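Within each group, the highest and lowest library of every member was compared with its nearest neighbour by Dixon's ratio. Of 114 groups examined, 10 had a library that stood apart, and chance gives about 1 in 20. Cre 1 stood apart for Socs3 at 19.6 CPM, with the next Cre library at 9.11, and for Ttr at 3972 CPM, with the next at 4824. Flpo 1 stood apart for Stat3 at 120.7 CPM (next 88.3) and for Itih3 at 1093 CPM (next 730.0). Flpo 6 stood apart for Mt1 at 283 CPM (next 131) and for Mt2 at 108 CPM (next 40.9). Single cases were Saa3 in Flpo 4 at 12.7 CPM (next 9.45), Cd14 in Flpo 3 at 4.38 CPM (next 3.16), Hp in Cre 2 at 4647 CPM (next 3763) and Hpx in GFP 4 at 4473 CPM (next 3499).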

How the results depend on the processing

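Over the 11 alternative settings, 4 of 12 member calls in Cre against GFP and 1 of 14 in Flpo against Cre passed in all of them; over the 16 libraries left out in turn, 8 of 12 and 13 of 14 did. The number of members called ran from 9 to 14 in Cre against GFP, from 14 to 15 in Flpo against Cre and stayed at 0 for Flpo against GFP when 1 library was left out. Calls over all genes then ran from 960 to 1462 in Cre against GFP and from 1454 to 2189 in Flpo against Cre. With the clock score as a covariate, 4 members were called in Cre against GFP and 1 in Flpo against Cre. In the latter Stat3 (0.023), Tab1 (0.24) and Fgg (0.051) changed sign. The cause was not tested. Without the low-count filter, which tests more genes, 8 members were called in Cre against GFP, with Saa4, Orm3, Itih1 and Steap4 lost. Calls over all genes there were 997 in place of 1328. With only the 2 groups compared, 9 members were called in Cre against GFP, with Saa4 (adjusted p 0.0793), Itih1 (0.0587) and Ttr (0.0804) lost. In Cre against GFP, 1328 genes of all kinds were called, 834 with only the 2 groups compared, 2127 with log2(TPM + 1), 2206 with log2(TPM + 0.1) and 178 with the clock score. In Flpo against Cre the 1906 calls became 23 with the clock score. In Flpo against GFP the 4 calls became 67 with DESeq2, 0 with limma-voom, the replicate block or the clock score, 1 with 2 groups or log2(TPM + 1), 2 with log2(TPM + 0.1), and 0 to 15 with a library left out. Library totals alone moved the median of all genes by -0.14 in Cre against GFP and 0.13 in Flpo against Cre, TPM by -0.12 to -0.18 and 0.14 to 0.20. The member split was then 3 higher and 10 lower, or 4 and 12 with TPM, in Cre against GFP, and 9 and 3, or 10 and 3, in Flpo against Cre. All genes tilted the same way. In Cre against GFP they split 300 higher and 1656 lower with totals, and 218 and 1909 with log2(TPM + 1). In Flpo against Cre they split 1810 and 454 with totals, and 2443 and 327 with log2(TPM + 1).

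The replicate number as a block, without Flpo 6, gave 10 member calls for Cre against GFP, 0 for Flpo against GFP, and 12 when Flpo was set against Cre. Over all genes this block gave 1019 calls in Cre against GFP in place of 1328, and 1352 in Flpo against Cre in place of 1906. Same-numbered libraries did not deviate together (r from -0.156 to 0.117, and 3 of 15 libraries correlated best with their own number), so the numbers are not read as pairs. With the pairing, Saa2, Saa4, Orm3 and Ttr lost their call in Cre against GFP and Saa2 and Orm3 in Flpo against Cre, while Stat3 and Mt2 gained one in Cre against GFP. Of the named pathway genes, Smad7, Hjv, Fth1 and Pltp lost theirs in Cre against GFP and Socs2, Bcl3, Rela and Fth1 in Flpo against Cre.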
